A study of Xenopus laevis with 5 samples.

Results

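The sox17 genes of Xenopus laevis were followed in neuralized ectoderm, through every probe set whose single annotated symbol starts with sox17. There were 4 such probe sets among the 15490 tested, and they stood for 3 of the 7530 genes named by a single symbol: sox17a.L, sox17a.S and, with 2 probe sets, sox17b.1.S. The genes were chosen by these symbols with 2 sets of values in view, the difference between zic1 and control explants and the spread among the controls, so those values are given here as a description without a test.

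Transcripts were measured on 5 Affymetrix arrays of ectodermal explants, 2 from embryos injected with a hormone-inducible zic1 and 3 from control embryos injected with beta globin. Zic1 is a DNA-binding regulator with zinc fingers that acts in the neural plate and at its edge. All embryos were injected at the stage of 2 cells and also received noggin, a BMP inhibitor that turns ectoderm neural. Explants of both groups were cut at stage 9 and cultured to the equivalent of stage 12. They then had 30 min of cycloheximide, which stops protein synthesis, and 3 h of dexamethasone, the hormone that activates the injected zic1 protein. Both groups therefore carried noggin, cycloheximide and dexamethasone, and they differed in the injected zic1 or globin. The labels call the arrays biological replicates without saying how many embryos or explants each held, or whether they came from separate clutches, so the p-values below measure the spread between these arrays.

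Sox17 proteins are HMG-box transcription factors of the SoxF group. In the Xenopus embryo they are made in the vegetal cells that become endoderm. There the maternal T-box factor VegT and nodal signals switch them on, together with Mix-type homeodomain and Gata factors, and Sox17 in turn activates endodermal genes. Ectoderm does not normally make endoderm. In the gene table used here, of assembly Xenopus_laevis_v10.1, an alpha and a beta sox17 gene lie next to each other on both the L and the S copy of their chromosome. The alpha genes sox17a.L and sox17a.S each had 1 probe set and the beta gene sox17b.1.S had 2, while no probe set carried the symbol sox17b.1.L. Short probes can bind transcripts of such near copies, so the signal of each probe set may include the others.

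Each value is a linear ratio of an array's level to that probe set's own median over the 5 arrays. The levels of different genes cannot be compared, nor can the ratios show whether a transcript was above background. For the same reason the labelled ectoderm could not be checked for the presence or absence of marker transcripts. Since these are bulk samples, fewer cells of a type and less RNA per cell cannot be told apart.

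All 3 sox17 genes were lowest in the zic1 explants and highest in control replicate 3. The beta gene sox17b.1.S was the furthest down in the zic1 explants. Its probe set ending in _s_at, a suffix Affymetrix gives to probes shared by more than 1 transcript, read 0.327 and 0.316 with zic1. In the controls it read 1.02, 1.00 and 2.24. The zic1 arrays were nearly equal, as were the first 2 controls, and the third control stood above both. The mean log2 ratio was -1.64 ± 0.035 (SD, n = 2) with zic1 and 0.40 ± 0.66 (SD, n = 3) in controls, a log2 difference of -2.04, or 4.10-fold less in the zic1 explants.

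The other sox17b.1.S probe set is annotated to the same source sequence, so it is not an independent measure of the gene. It gave the same order of the groups. Its values were 0.406 and 0.444 with zic1, against 1.08, 1.00 and 2.33 in controls 1, 2 and 3. Its log2 difference was -1.68, with a mean of -1.24 ± 0.091 (SD, n = 2) with zic1 and 0.44 ± 0.67 (SD, n = 3) in controls. The probe set ending in _s_at lay below it by 0.31 and 0.49 (log2) in the zic1 arrays, and by at most 0.081 in the controls.

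The alpha gene sox17a.L read 0.713 and 0.599 with zic1, against 1.00, 1.10 and 3.19 in controls 1, 2 and 3. Here the third control was the array that stood apart most, and the zic1 arrays lay nearer to the first 2 controls than they did for sox17b.1.S. The mean log2 ratio was -0.61 ± 0.18 (SD, n = 2) with zic1 and 0.60 ± 0.93 (SD, n = 3) in controls, a difference of -1.22.

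Its copy sox17a.S read 0.729 and 0.964 with zic1, against 1.09, 1.00 and 2.36 in controls 1, 2 and 3. The groups did not overlap, but the second zic1 array came within 0.053 (log2) of the lowest control. The mean was -0.25 ± 0.29 (SD, n = 2) with zic1 and 0.45 ± 0.68 (SD, n = 3) in controls, a difference of -0.71.

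**Figure D1:**
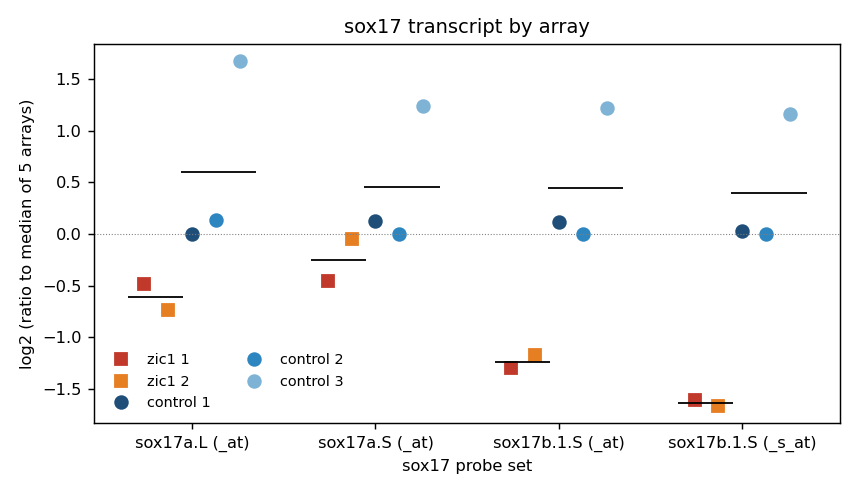
The log2 ratio of each sox17 probe set to its median over the 5 arrays (vertical axis) is plotted by probe set, with squares for zic1 arrays, circles for control arrays and black lines for group means. Control 3 is the highest point of every probe set (ratios of 2.24 to 3.19), and the zic1 squares are furthest below the other controls for sox17b.1.S.

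In all 4 probe sets both zic1 arrays lay below all 3 controls, an arrangement that 19.4% of all probe sets showed. The difference of the sox17b.1.S probe set ending in _s_at was the 10th lowest of the 15490, and that of the other sox17b.1.S probe set the 17th. The differences of sox17a.L and sox17a.S were the 43rd and the 294th lowest. The median over the 4 probe sets was -1.45, and over all probe sets it was -0.00021.

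The controls differed among themselves for these genes. Control 3 was 2.22 to 3.04 times the geometric mean of controls 1 and 2. Those 2 controls were within 0.14 (log2) of each other in every sox17 probe set. The SD of the log2 ratio among the controls was 0.66 to 0.93 for the 4 probe sets, against a median of 0.13 over all probe sets. They ranked from 59th to 156th in that spread. All 4 sox17 probe sets were at least 2 times their median in control 3, as were 0.207% of all probe sets, or 32 in number. No sox17 probe set reached that level in another array.

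Both zic1 arrays lay below every control, so they were also the lower ones without control 3. The amounts differed between the beta and the alpha genes. The log2 difference was then -1.65 and -1.29 for sox17b.1.S, -0.68 for sox17a.L and -0.32 for sox17a.S. For the alpha genes control 3 thus moved the difference by more than 1.5 times. In linear terms the geometric mean of controls 1 and 2 was 3.14 and 2.45 times that of the zic1 arrays for sox17b.1.S. It was 1.60 times for sox17a.L and 1.25 times for sox17a.S.

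**Figure D2:**
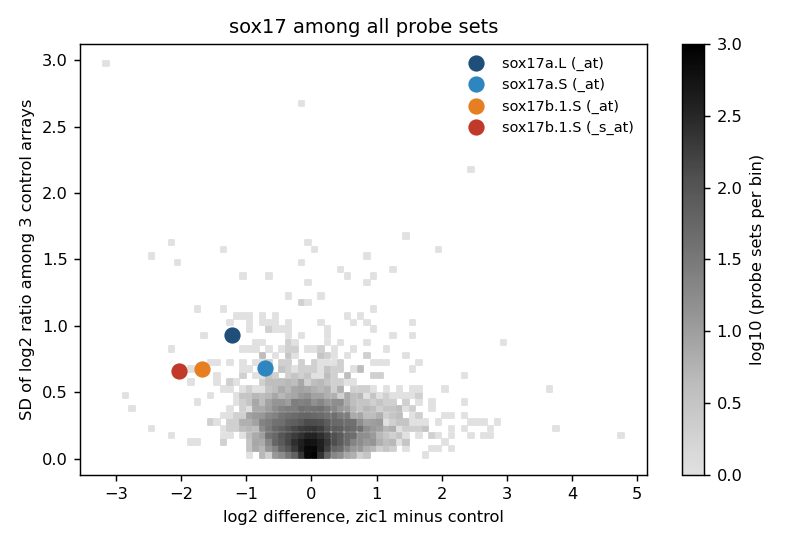
The SD of the log2 ratio among the 3 controls (vertical axis) is plotted against the log2 difference of zic1 minus control (horizontal axis), in grey by the number of probe sets per bin and with the sox17 probe sets as coloured points. The sox17 points lie between 0.66 and 0.93 in SD and between -2.04 and -0.71 in difference, away from the bulk of probe sets.

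The beta and alpha genes were set against each other within each array, where probes that differ in response can also change the log2 ratio: the 2 probe sets of sox17b.1.S alone differed by up to 0.49. The mean of the sox17b.1.S probe sets minus sox17a.S was -1.001 and -1.36 with zic1, against -0.056, 0 and -0.045 in controls 1, 2 and 3. In control 3 the probe sets of both genes were up by about the same amount, whereas in the zic1 arrays those of sox17b.1.S read further down than that of sox17a.S. Against sox17a.L the corresponding values were -0.97 and -0.68 with zic1 and 0.072, -0.14 and -0.48 in the controls. The 2 alpha copies themselves, sox17a.L minus sox17a.S, gave -0.032 and -0.69 with zic1 and -0.13, 0.14 and 0.44 in the controls, with overlap between the groups.

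The values also pointed to a set of arrays that the labels do not name. Zic1 replicate 1 and controls 1 and 2 shared 788 to 944 exactly equal values in each pair, and every other pair of arrays shared 35 to 73. Zic1 replicate 2 and control 3 shared 43, so no equal values tie them to each other. Within the set, zic1 replicate 1 lay below the mean of controls 1 and 2, with log2 differences of -1.63 and -1.36 for sox17b.1.S, -0.56 for sox17a.L and -0.52 for sox17a.S. In the arrays left over, zic1 replicate 2 minus control 3 was -2.83 and -2.39 for sox17b.1.S, -2.41 for sox17a.L and -1.29 for sox17a.S. What the set stands for was not tested.

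The genes that act with sox17 in endoderm were then compared between the groups with limma, with Benjamini-Hochberg adjustment over all 15490 probe sets, of which 1.41% passed an adjusted p of 0.05. In 3 lists drawn up for endoderm, whose genes are not all particular to it, 1 of 60 probe sets passed, and it rose. This was vegt.L, the T-box factor that induces endoderm and also marks mesoderm, which read 4.28 and 4.62 with zic1, against 0.740, 0.676 and 1.00 in controls 1, 2 and 3. Its log2 difference was 2.49 ± 0.18 (SE, limma adjusted p = 0.0157), the opposite direction to sox17. Its difference was 2.37 to 2.65 with single arrays left out, but its adjusted p did not pass without control 1 (0.0750) or control 2 (0.112). Without control 1 and control 2 in turn, 21 and 5 of all 15490 probe sets passed, against 219 with all arrays (limma). Without either zic1 array, when the controls alone give the spread and the lone zic1 array is assumed to vary like them, 0 of all probe sets passed (limma, with an unadjusted p under 0.05 in 1467 and 2483), so those settings decide no single call.

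Vegt.L was the 1 probe set to pass of 24 for inducers in limma, where 4 had an unadjusted p under 0.05, as did 20.9% of all probe sets. The T-box gene eomes.L differed by 1.50 ± 0.24 (adjusted p = 0.0573, limma), with 1.99 and 2.50 in the zic1 arrays and 0.602 to 1.00 in the controls. Vegt.S differed by 0.85 ± 0.17 (adjusted p = 0.0820, limma) and acvr2b.S, a receptor for activin and nodal, by 0.40 ± 0.097 (adjusted p = 0.107, limma) in 1 of its probe sets. The 5 probe sets of nodal ligands stayed between ratios of 0.875 and 1.25 on all arrays, with differences between -0.16 and 0.12 (adjusted p of 0.504 to 0.894, limma). The median difference of the 24 probe sets of inducers was 0.081.

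Of 22 probe sets for endoderm transcription factors 0 passed in limma, where 5 had an unadjusted p under 0.05 (20.9% of all probe sets did), and their median difference was -0.00092. Bix1.1.L, a Mix-type homeobox gene, read 0.630 and 0.682 with zic1, against 1.00, 1.24 and 1.47 in controls 1, 2 and 3. Its difference of -0.90 ± 0.17 had an adjusted p of 0.0760 (limma). Mixer.S, of the same homeobox class, differed by 0.27 ± 0.073 (adjusted p = 0.123, limma). Prdm1.S, a zinc-finger repressor, differed by 0.66 ± 0.13 and 0.61 ± 0.15 in 2 probe sets (adjusted p = 0.0799 and 0.113, limma).

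The Gata factors of endoderm and heart, gata4, gata5 and gata6, shared with sox17 a high value in control 3. All 6 of their probe sets were highest in that array, as were 15 of the 22 transcription factor probe sets and 26.2% of all probe sets. Gata4.S read 2.66 and gata4.L 2.00 in control 3, while the rest of the arrays ran from 0.637 to 1.21. Bix1.3.L read 2.30 there and 0.985 to 1.04 elsewhere, while hhex.L, a homeobox gene of anterior endoderm, read 1.35 and 0.986 to 1.01. The Gata genes differed between the groups by -0.77 to -0.14 with adjusted p of 0.304 to 0.804 (limma). The Gata genes and the last 2 genes were picked out after their values were seen.

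**Figure D3:**
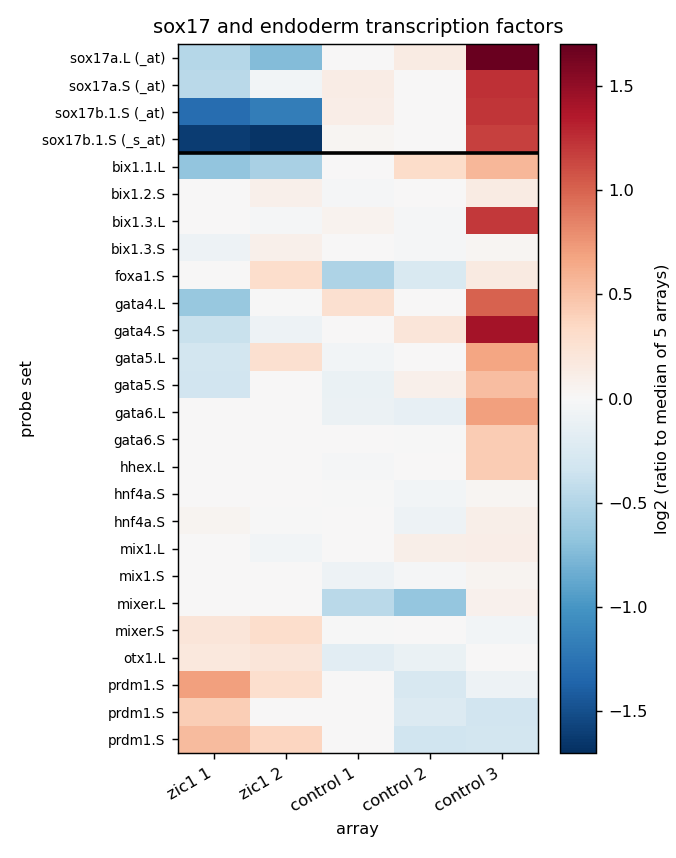
Colour gives the log2 ratio to the median of the 5 arrays for the 4 sox17 probe sets (above the black line) and 22 probe sets of endoderm transcription factors, with 1 column per array. The column of control 3 is strongest red for sox17, gata4 and bix1.3.L, and paler red for other rows, including gata5, gata6, bix1.1.L and hhex.L. The zic1 columns are deep blue only for sox17b.1.S among these rows.

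In the list of endoderm products and later genes, not all of them particular to endoderm, 0 of 14 probe sets passed in limma. Of the 14, 2 had an unadjusted p under 0.05 (20.9% of all probe sets did), and the median difference was 0.038. In control 3, 0 of the 14 were at least 2 times their median, against 0.207% of all probe sets. Control 3 was the highest array for 4 of the 14, as for 26.2% of all probe sets. The endoderm marker a2m.S, known as endodermin, read 0.816 in control 3. Cer1.S, a secreted antagonist of anterior endoderm, read 1.10 there and 0.901 to 1.05 elsewhere. It was not among the genes named by rule. Pnhd.L, a secreted factor, ran the other way from sox17, with 1.68 and 1.53 in the zic1 arrays and 0.711 to 1.00 in the controls (0.89 ± 0.16, adjusted p = 0.0696, limma). Its other probe set differed by -0.04. The differences of nkx2-1.L (0.24), a2m.S (0.28) and frzb.S (0.11) did not pass either. The SoxF relatives sox18.S (0.86 ± 0.25), sox18.L (0.43 ± 0.23) and sox7.L (0.43 ± 0.20) lay above the controls on average without passing (limma adjusted p = 0.140, 0.356 and 0.295).

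Markers of other cells that an explant could hold were measured beside sox17, and their part in the sox17 values was not tested. RNAs of the vegetal cortex and germ plasm, listed as possible marks of vegetal cells, averaged 0.15 and 0.16 (log2) in the zic1 arrays. In the controls they averaged -0.033, -0.086 and 0.031. The mean included vegt.L, and the median difference of the list was 0.0070. Of their 17 probe sets 0 were at least 2 times their median in control 3, where 0.207% of all probe sets were. Of the 17, 1 passed, the vegt.L already given, as did 1.41% of all probe sets. The germ plasm helicase ddx25.L differed by -0.82 ± 0.12 (adjusted p = 0.0512, limma) and wnt11b.L, a Wnt ligand in the same list, by 1.36 ± 0.34 (adjusted p = 0.113, limma). Endoderm transcription factors averaged 0.31 in control 3 and -0.068 to 0.055 in the other arrays.

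Of 22 mesoderm probe sets 4 passed, all higher with zic1, as did 1.1% of all probe sets in that direction. They were the muscle factors myod1.S (2.86 ± 0.18) and myod1.L (1.67 ± 0.21), the forkhead gene foxf1.L of the lateral mesoderm (1.73 ± 0.11), and the Wnt ligand wnt8a.L (1.04 ± 0.081), with limma adjusted p of 0.0129, 0.0396, 0.0134 and 0.0196. The mesoderm list averaged 0.36 and 0.49 in the zic1 arrays and -0.17 to -0.038 in the controls. This mean included the 4 called probe sets, and the median difference of the list was 0.31. Other members changed less, such as tbxt.S (0.15) and myf5.L (0.045), and mespa.S differed by -0.18. Both zic1 arrays lay above all controls in 12 of the 22 probe sets and below them in 1, against 3078 and 3012 of all 15490. With single arrays left out the differences ran from 2.74 to 3.00 for myod1.S, 1.38 to 1.96 for myod1.L, 1.57 to 1.89 for foxf1.L and 1.01 to 1.08 for wnt8a.L. All 4 calls were lost without control 2, all but that of myod1.S without control 1, and that of myod1.L without control 3. Of all 15490 probe sets 5, 21 and 207 passed without controls 2, 1 and 3, against 219 with all arrays (limma). The call of myod1.L was also lost after quantile normalization (limma adjusted p = 0.0570), and that of wnt8a.L when the set of 3 arrays with equal values was blocked against the rest (0.0526).

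Of 15 probe sets for ectodermal factors that hold back endoderm or mesoderm formation, or pattern ectoderm, 1 passed (1.41% of all probe sets did). It was the Zic family gene zic2.L (0.91 ± 0.12, adjusted p = 0.0432, limma), and its difference was 0.82 to 0.98 with single arrays left out. Its call was lost on leaving out each control in turn (limma adjusted p of 0.0632 to 0.130), after quantile normalization (0.0638) and under that same block (0.0894). Without controls 1, 2 and 3 in turn, 21, 5 and 207 of all 15490 probe sets passed (limma). The HMG-box genes sox2.L (0.66 ± 0.17) and sox3.S (0.49 ± 0.12) did not pass (adjusted p = 0.121 and 0.104, limma). This list averaged 0.24 and 0.25 with zic1, against -0.048, -0.17 and -0.23 in controls 1, 2 and 3. The mean was lowest in control 3, but for foxi1.L, lefty.L and lefty.S that array was the highest of the controls. The sox2 and sox3 probe sets are also in the neural list below.

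Neural, epidermal and cement gland markers had 0 calls in 16, 30 and 9 probe sets (limma), of which 9, 6 and 3 had an unadjusted p under 0.05, against 20.9% of all probe sets. The neural list averaged 0.25 and 0.22 with zic1, against -0.038, -0.11 and -0.21 in controls 1, 2 and 3. Gmnn.L differed by 0.51 ± 0.090 (adjusted p = 0.0666, limma), but its copy gmnn.S by 0.093 (adjusted p = 0.667, limma). Tubb2b.S ran the other way, at -0.58 ± 0.21 (adjusted p = 0.199, limma). Both zic1 arrays lay above all controls in 11 of the 16 neural probe sets and below them in 1, tubb2b.S. Of all 15490 probe sets 3078 lay above and 3012 below in this way. Epidermal markers averaged -0.33 and -0.042 with zic1, against -0.088, 0.27 and 0.15 in controls 1, 2 and 3, with overlap between the groups. Cement gland markers averaged -0.11 and 0.048 with zic1, against -0.040, 0.67 and -0.25 in controls 1, 2 and 3. Among cement gland genes control 2 stood apart for ag1 and agr2 (1.41 to 3.15), but not for crx and pitx1 (0.923 to 1.00). Control 3 stood apart for sox17.

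**Figure D4:**
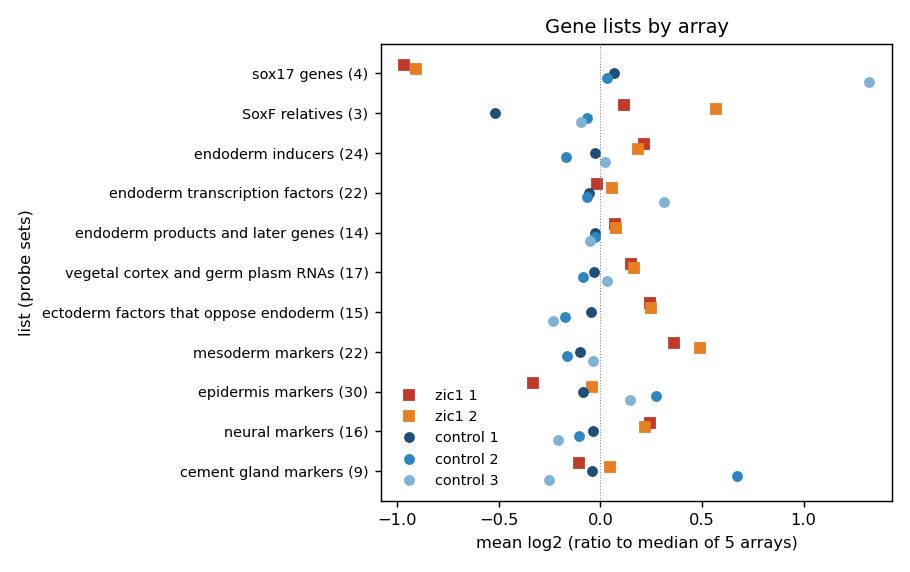
The mean log2 ratio of each gene list (horizontal axis) is shown for each array, with squares for zic1 and circles for control arrays and the number of probe sets in brackets. The sox17 genes, chosen with these values in view, span from -0.96 in zic1 replicate 1 to 1.32 in control 3.

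Likeness to sox17 was measured as Pearson's r of log2 ratios over the 5 arrays, with the sox17b.1.S probe set ending in _s_at, among 374 probe sets with an informative symbol and an SD of at least 0.5. With 5 arrays high values are common, and r is given as a description. The sox17b.1.S probe sets were alike at r = 0.995, and each was like the alpha genes at r = 0.854 to 0.942. The most alike of the other genes were ndufa6.S, a subunit of mitochondrial complex I (r = 0.971), ubp1.L (0.971), bix1.1.L (0.969), dynll1.L, a dynein light chain (0.967), and eif5a.L, a translation factor (0.966). Stom.L, arg2.S, zp4.S, astl2d.1.L and scmh1.S followed, with r from 0.944 to 0.959. Other probe sets of the same genes could be less alike, with r of -0.401 for arg2.S and 0.530 to 0.914 for eif5a.L. The other probe set of scmh1.S had r = 0.913 and a log2 difference of -1.86 (adjusted p = 0.0252, limma). Of these 10 genes, bix1.1.L was in an endoderm list. Their values in the zic1 arrays lay between 0.434 and 0.756, above the 0.316 and 0.327 of sox17b.1.S. The most opposed were the Hes-type repressors esr-5.L (r = -0.997) and hes7.1.L (-0.995), then cfb.L (-0.990), pnhd.L (-0.990) and srd5a1.S (-0.987). Hes7.1.L read 2.37 and 2.31 with zic1, against 0.848, 1.00 and 0.542 in controls 1, 2 and 3, while its other probe set had r = -0.599.

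For the alpha genes the most alike included copies of gata4 and genes of no endoderm list, a comparison added after the values were seen. Smn1.S was the most like sox17a.S (r = 0.991), and grn.L had 0.978 with sox17a.S and 0.948 with sox17a.L. These genes, like the Gata genes and bix1.3.L, were highest in control 3. Gata4.S had r = 0.960 with sox17a.L and 0.982 with sox17a.S, and gata4.L had 0.967 with sox17a.S. Bix1.3.L had 0.934 with sox17a.L and 0.945 with sox17a.S. Neither gata4 copy was among the 10 most like either sox17b.1.S probe set. The lists also overlapped: dynll1.L was among the 10 most like every sox17 probe set. Stom.L and eif5a.L were among those of sox17a.L and of both sox17b.1.S probe sets.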

How the data were processed

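RNA of the explants (2 µg per sample, biotin-labelled, per the labels' protocols) was read on 5 arrays. GCOS and RMA appear in the submitters' processing notes, with no version and no role given. The authors deposited a ratio per array, found from the values to be centred on 1: each of the 15571 complete rows had a median of exactly 1. From 15572 rows, 81 Affymetrix controls and 1 row with missing values were left out. Platform symbols were updated through gene identifiers (2 changed): 9303 probe sets had 1 symbol, 195 several and 5992 none here, and all 3 sox17 genes matched the gene table.

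The comparison of groups used limma 3.58.1 (R 4.3.3) on log2 of the ratio (3 residual and 2.29 prior degrees of freedom), adjusted over 15490 probe sets. The zic1 comparison was tested on simulated data of 15490 probe sets. There 67 of 100 rises of 1 and 88 of 100 falls of 2 (log2) were recovered, with 4 false calls. The simulated noise was normal and independent between arrays, so it held no set of arrays like the one found here. The sox17 genes and the gene lists were chosen with earlier results of these data known. Genes to name were all sox17 probe sets and the 10 most and 5 least like sox17b.1.S. From each list they were those past the threshold and the 4 of largest moderated t. Not all of the latter are given above, and zic2.S, sox11.S and gata3.S are among those left out. Alternatives were each array left out, the replicate number, or the set of 3 arrays with equal values against the rest, as a block, quantile normalization, log2(value + 1), array weights, a robust prior and an adjusted p of 0.10. The number of arrays limits the precision. Plots used matplotlib 3.10.9. No sequences are shown.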

Additional observations from a re-analysis of the deposited data

How the results depend on the processing

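All 36 recomputed log2 differences of the 4 sox17 probe sets stayed negative, and 34 moved by less than the SD within groups. The other 2 were those of sox17b.1.S with log2(value + 1), at -0.75 and -0.84, since a pseudocount of that size compresses ratios below 1 by construction. Because both zic1 arrays lay below every control, only quantile normalization could have changed the sign. The SD within groups includes the distance of control 3 from the other controls. The moves without that array therefore counted as small, from -1.22 to -0.68 for sox17a.L and from -0.71 to -0.32 for sox17a.S. With single arrays left out the differences ran from -2.23 to -1.65 and from -1.90 to -1.29 for sox17b.1.S, from -1.52 to -0.68 for sox17a.L and from -0.94 to -0.32 for sox17a.S. The count of 219 called probe sets became 109 after quantile normalization, 935 with array weights, 37 with a block that set zic1 replicate 1 and controls 1 and 2 apart from the other arrays, 1054 for a threshold of 0.10, and 0 to 207 with single arrays left out, where 99 of the 207 without control 3 were among the 219. It was 0 without either zic1 array (limma; an unadjusted p under 0.05 was met by 1467 and 2483), then 21 and 5 without control 1 and control 2. The replicate block gave 2692 of 15490 on 1 residual degree of freedom, with 10 of 60 in the endoderm lists and 29 of 94 in the lists of other cells. The deviations of same-numbered arrays from their group means correlated at 0.32 and 0.28 over probe sets. With 2 zic1 arrays these deviations are mirror images of each other, so the crossed pairs gave -0.32 and -0.28. The 2 values are therefore not separate signs of a pairing, and no label says that a number marks a shared batch. Vegt.L counts in both the endoderm lists and the lists of other cells. With log2(value + 1), where 314 of all 15490 probe sets were called, the 1 call in the endoderm lists became 2 of 60. With array weights, where 935 of all were called, it became 6 of 60, and the 5 in the lists of other cells became 11 of 94. With single arrays left out these counts ran from 0 to 1 and from 0 to 4. The causes were not tested. The ratios keep no signal, so depth over background is unknown.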

Other observations

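Control 3 held other high values beside sox17, and those given here, apart from itln1.L, belong to no gene list above. Of the 32 probe sets at least 2 times their median in that array, the highest with a gene name was tnnc2.L, a troponin C of fast muscle, at 3.92 against 0.913 to 1.37 in the other arrays. Smn1.S, which acts in the assembly of splicing particles, read 2.84 against 0.736 to 1.02, and grn.L, a secreted granulin precursor, read 2.09 against 0.771 to 1.15. Sox17a.L, at 3.19, was the 4th highest of the 32. The intelectin gene itln1.L, an epidermal marker, read 2.78 in control 3, but 2.47 in control 2 and 0.118 in zic1 replicate 1, so it did not follow sox17.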
